A study of Mus musculus with 16 samples.

Results

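The genes described here are 9 basic helix-loop-helix (bHLH) transcription factors, namely Ascl2, Neurog2, Neurod1, Neurod2, Neurod6, Bhlhe22, Hes1, Hes5 and Hey1. They were chosen by symbol, as proneural and neuronal factors and as effectors of Notch signalling, from the 48397 gene symbols counted in each library. All 9 were among the 17038 genes with enough reads to be tested, Ascl2 only through its libraries treated with apoE. RNA was sequenced from primary hippocampal neurons of wild type CD1 mice, prepared from pups at postnatal days 0 to 2. There were 4 libraries in each of 4 groups, 16 in all. Control neurons received medium conditioned by Apoe-/- astrocytes, and the apoE2, apoE3 and apoE4 neurons received medium of astrocytes that express that human isoform of apolipoprotein E. In every group the conditioned medium was concentrated, was given at 10 and again at 13 days in vitro (DIV), and the RNA was taken at 17 DIV. All cultures, controls included, had also been treated with cytosine arabinoside at 3 DIV, which stops dividing cells. The astrocytes were immortalised lines, and the neurons carried the mouse Apoe gene in all 4 groups.

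Proneural bHLH factors pair with E proteins, bind E-box sequences and switch on genes of neuronal commitment, and the NeuroD factors act after them in differentiating neurons. Notch receptors, once cleaved, act with the DNA-binding protein RBPJ to raise HES and HEY factors, which repress proneural genes and keep progenitors undifferentiated, and which also serve in glial development. In the hippocampus, Neurog2 marks committed progenitors of excitatory neurons, Neurod1 granule neurons of the dentate gyrus, and Neurod2, Neurod6 and Bhlhe22 postmitotic pyramidal neurons. Hes1 and Hes5 are typical of radial glia, neural stem cells and astrocytes.

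The 250 bases before the start site of 4 of these genes are shown. Ascl2 and Hes5 are the factors that met the study's criterion for a change against the control, Neurod2 had an edgeR adjusted p under 0.05 between isoforms with the replicate block described below, and Neurod6 had the highest mean level per kilobase of exon. They are RefSeq sequences on GRCm38.p6, and the table used here matched 6 of the 9 genes. The stretch of Ascl2 is chr7:142969265-142969514 on the minus strand, that of Hes5 chr4:154960673-154960922 on the plus strand, that of Neurod2 chr11:98329646-98329895 on the minus strand and that of Neurod6 chr6:55681264-55681513 on the minus strand. Capitals mark the E-box CANNTG and the core TGGGAA of the RBPJ site, searched on both strands.
Ascl2: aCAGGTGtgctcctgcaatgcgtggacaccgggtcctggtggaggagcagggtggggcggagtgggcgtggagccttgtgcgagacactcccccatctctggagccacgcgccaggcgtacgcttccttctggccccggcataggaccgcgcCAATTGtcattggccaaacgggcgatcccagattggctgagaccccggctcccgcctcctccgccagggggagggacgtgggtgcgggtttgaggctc
Hes5: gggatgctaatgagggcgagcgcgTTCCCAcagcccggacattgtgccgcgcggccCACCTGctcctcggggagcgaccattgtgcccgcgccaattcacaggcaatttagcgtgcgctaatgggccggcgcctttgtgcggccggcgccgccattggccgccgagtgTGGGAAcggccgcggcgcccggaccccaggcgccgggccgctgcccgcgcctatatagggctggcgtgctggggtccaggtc
Neurod2: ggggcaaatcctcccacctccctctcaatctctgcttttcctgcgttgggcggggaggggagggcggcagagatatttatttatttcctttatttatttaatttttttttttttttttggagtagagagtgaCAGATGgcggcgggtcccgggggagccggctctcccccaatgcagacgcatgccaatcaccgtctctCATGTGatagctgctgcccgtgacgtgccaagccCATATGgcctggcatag
Neurod6: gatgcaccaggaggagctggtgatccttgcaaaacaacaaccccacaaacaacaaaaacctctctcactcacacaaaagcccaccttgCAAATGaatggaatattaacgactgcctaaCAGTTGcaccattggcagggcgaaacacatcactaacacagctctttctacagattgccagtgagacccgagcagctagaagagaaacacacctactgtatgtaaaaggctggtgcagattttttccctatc

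Windows of 300 bases, from 250 before to 50 after the start site, were searched in 32851 RefSeq promoters, of which 72.3% held an E-box and 25.6% an RBPJ core. Ascl2 had E-boxes whose first bases lay at −249 (CAGGTG) and −98 (CAATTG), with the start site as position 1. Neurod2 had them at −118, −51 and −17 and Neurod6 at −162 and −132. Hes5, a classical Notch target, had 1 E-box at −194 and RBPJ cores at −226 and −82, and it was the one gene of the 6 with an RBPJ core. Neurod1 had 1 E-box, at −242, and Neurog2 none. The N-box CACNAG, which HES factors bind, stood 3 times in the windows of Ascl2 and of Neurod6, at −215, −176 and −3 and at −246, −234 and −23, and once in those of Neurod1 (−1) and Neurog2 (23), so that 4 of the 6 held at least 1, against 42.5% of all promoters. N-boxes and E-boxes did not share letters here. These are matches of letters in a window and not measured binding.

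The libraries held 14087723 to 34248172 reads on genes, and 38.4 to 73.7% of a library's reads fell on no single gene. Libraries with the same replicate number deviated together from their group means, with correlations of 0.362 to 0.831, so that a fit with the number as a block is given where it changes a call. All 10 neuron markers (Map2, Rbfox3, Snap25, Slc17a7, Gad1 and others) were tested, and their summed level was 2937 to 7447 CPM (gene counts relative to the TMM-scaled library size) over the 16 libraries. The 10 astrocyte markers (Gfap, Aqp4, Aldh1l1 and others) summed to 1330 to 6694 CPM, so these neuron cultures also held glial RNA. The 8 microglial markers summed to 6.98 to 44.4 CPM, and Tmem119 among them was at 0 in 1 control library.

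Per kilobase of exon, the levels spanned a wide range. In control libraries Neurod6 had 85.4 ± 45.3 and Bhlhe22 58.3 ± 16.6 CPM per kb (mean ± SD, n = 4). They were followed by Neurod2 at 19.6 ± 9.08, Neurod1 at 15.2 ± 2.52 and Hey1 at 11.3 ± 2.33 CPM per kb. Neurog2 (1.93 ± 0.943), Hes1 (1.60 ± 0.109), Hes5 (0.391 ± 0.115) and Ascl2 (0.133 ± 0.0967 CPM per kb) were low. The control libraries of Bhlhe22 and Neurod2, of Hey1 and Neurog2, of Hes1 and Hes5 and of Hes5 and Ascl2 did not overlap, while the other neighbours in this order overlapped. The order of the 5 highest was the same in all 4 groups. In apoE2 and apoE3 libraries the mean of Ascl2 (0.872 ± 0.656 and 0.973 ± 0.517 CPM per kb) stood above that of Hes5 (0.402 ± 0.200 and 0.835 ± 0.546), within overlapping ranges.

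**Figure D1:**
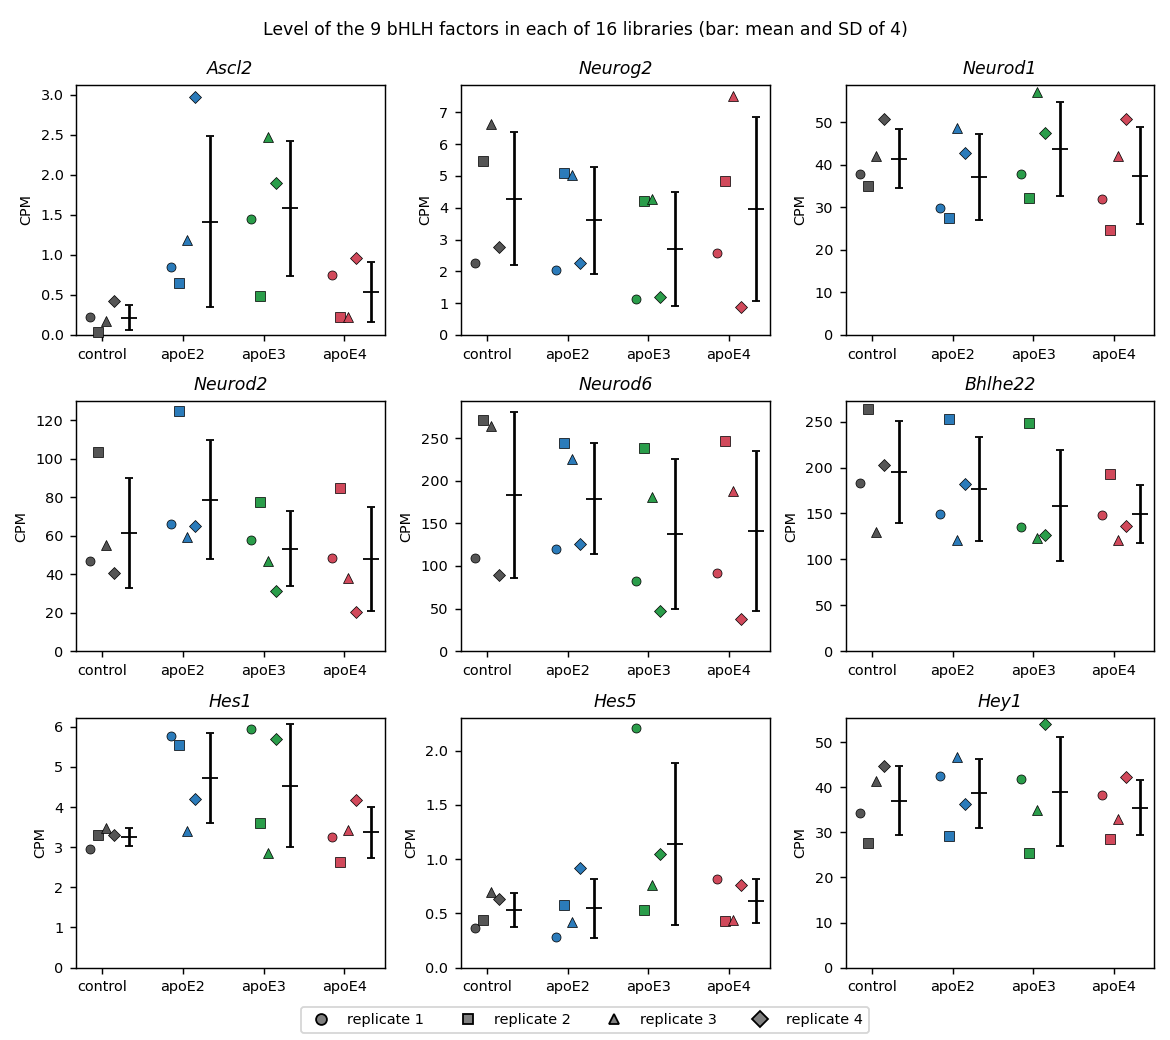
Each panel plots the level of 1 factor in CPM, on its own linear axis, for the 4 libraries of each group, with the mean and SD beside them. Ascl2 is higher in all apoE2 and apoE3 libraries than in any control library, and the ranges of the other 8 factors overlap between every treated group and the control.

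Against the control, few of the 9 factors changed. The study calls a gene changed when its fold reaches 2 and its p, without adjustment, is below 0.05. In edgeR's quasi-likelihood test 1 of the 9 met this with apoE2 (Ascl2), 2 with apoE3 (Ascl2 and Hes5) and 0 with apoE4, beside 0.722%, 1.96% and 1.15% of all tested genes. No member had an adjusted p under 0.05 in these comparisons, where 0.0%, 0.00587% and 0.194% of all genes did. At an unadjusted p under 0.05 stood 1, 2 and 0 of them, beside 2.79%, 6.43% and 3.3% of all genes. DESeq2 called 0, 1 (Ascl2) and 0 at an adjusted p under 0.05, beside 0.076%, 0.242% and 0.447% of the genes to which it gave one. With the replicate number as a block, 1, 1 and 0 had an edgeR adjusted p under 0.05 (Ascl2 with apoE2 and apoE3), beside 1.73%, 11.7% and 3.3% of all genes. DESeq2 with the block called 1, 3 and 1 of the 9, beside 4.32%, 15.3% and 5.99%. Ascl2 alone met the criterion of the study in the blocked edgeR fit, in all 3 comparisons, beside 1.56%, 4.77% and 2.5% of all genes. The median log2 fold change of the 9 was 0.06, 0.07 and −0.12, against 0.01, 0.02 and 0.002 over all genes. The 3 comparisons share the control libraries and are not independent of each other.

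Ascl2 (chr7:142966829-142969264, mm10), a proneural-family factor best known from trophoblast and intestinal stem cells, was the most changed of the 9. Its level in control replicates 1 to 4 was 0.227, 0.0402, 0.175 and 0.419 CPM. In apoE2 it was 0.846, 0.650, 1.19 and 2.98 CPM, and in apoE3 1.45, 0.492, 2.48 and 1.90 CPM. All 8 of these libraries were above every control library. In apoE4 the levels were 0.746, 0.228, 0.221 and 0.967 CPM, each above the control of the same number but overlapping the control range. These levels rest on few reads, 19 in the 4 control libraries together, where 1 library had 1 read, and 177, 125 and 42 in apoE2, apoE3 and apoE4. Control libraries held 1 to 8 reads, below the filter's minimum count of 10, and apoE2 and apoE3 libraries 12 to 117 and 12 to 65. Ascl2 thus entered the tests through the groups where it was high, and its calls are not independent of that filter.

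Ascl2 was 6.73-fold higher with apoE2 (log2 fold change 2.75 ± 0.73, SE, edgeR adjusted p = 0.760). It was 7.40-fold higher with apoE3 (2.89 ± 0.73, edgeR adjusted p = 0.407). With apoE4 the difference was 1.32 ± 0.75 (edgeR adjusted p = 1), short of the criterion. With the replicate block the adjusted p was 0.00765 for apoE2, 9.9e-04 for apoE3 and 0.182 for apoE4, whose log2 fold change of 1.36 then met the criterion. Both first calls at the study's criterion held with any 1 library left out, with log2 fold changes of 2.07 (without apoE2 replicate 4) to 3.25 for apoE2 and 2.54 to 3.39 for apoE3. In the per-gene test that the study's methods name, the apoE2 call was lost (2.71). For apoE4 the criterion was met without control replicate 4, at 1.81, and over all fits with 1 library left out the log2 fold change was 0.838 to 1.81. Ascl2 is among the transcription factors that the study lists from these same libraries, so its place among the 9 is not independent evidence. In bulk RNA of a mixed culture, more RNA of a gene per cell and more cells of a type that expresses it cannot be told apart.

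Neurog2 (chr3:127633135-127635631), the proneural factor of committed excitatory progenitors, was measured at 2.27, 5.47, 6.63 and 2.78 CPM in control replicates 1 to 4. The levels were 2.04, 5.08, 5.02 and 2.26 CPM in apoE2, 1.14, 4.22, 4.27 and 1.18 CPM in apoE3 and 2.58, 4.85, 7.53 and 0.865 CPM in apoE4. Replicates 2 and 3 were the 2 highest in every group. The apoE2 and apoE3 library was below the control of its number in 4 of 4 pairs, and apoE4 in 2 of 4. The log2 differences were −0.25 ± 0.62, −0.65 ± 0.62 and −0.12 ± 0.62 (SE), and none passed edgeR's test, while in DESeq2 with the block the adjusted p of Neurog2 was 0.0342 with apoE3 (−0.76).

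Neurod1 (chr2:79452521-79456751), which drives granule neuron differentiation, was steady between groups, at 35.0 to 50.7 CPM in control, 27.4 to 48.6 in apoE2, 32.2 to 57.2 in apoE3 and 24.8 to 50.8 in apoE4. The log2 differences from the control were −0.16 ± 0.24, 0.08 ± 0.24 and −0.15 ± 0.24 (SE). Of its exon bases, 13.0% lie over Cerkl on the same strand or Gm26755 on the other, where reads may have been left uncounted.

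Neurod2 (chr11:98325415-98329648), a factor of postmitotic cortical and hippocampal excitatory neurons, was at 47.0, 103, 55.1 and 40.8 CPM in control replicates 1 to 4. It was at 66.0, 125, 59.4 and 65.1 CPM in apoE2, above the control of the same number in 4 of 4 pairs. In apoE3 it was at 57.7, 77.5, 46.7 and 31.4 CPM and in apoE4 at 48.7, 84.7, 38.3 and 20.4 CPM, above the control in 1 of 4 pairs for each. The groups overlapped throughout, and the log2 differences of 0.36 ± 0.41, −0.21 ± 0.41 and −0.36 ± 0.41 (SE) did not pass the test.

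Neurod6 (chr6:55677822-55681263), a pyramidal neuron factor with the highest mean of the 9 per kilobase, was at 110, 271, 264 and 89.7 CPM in control replicates 1 to 4 and at 120.3, 244, 226 and 125 CPM in apoE2. It was at 82.3, 239, 181 and 47.0 CPM in apoE3 and at 91.5, 247, 188 and 38.2 CPM in apoE4. Each apoE3 and apoE4 library was below the control of its number, while the groups overlapped because the numbers differed among themselves by far more. The log2 differences were −0.42 ± 0.58 and −0.38 ± 0.58 (SE) and did not pass the test, with or without the block. For apoE2 the difference was −0.04 ± 0.58.

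Bhlhe22 (chr3:18054174-18057517), a repressor that directs connections of postmitotic projection neurons, was at 184, 264, 129.7 and 203 CPM in control replicates 1 to 4. It was at 149.6, 252, 121 and 183 CPM in apoE2, at 135, 249, 123 and 127 CPM in apoE3 and at 149, 193, 121 and 136 CPM in apoE4. In all 12 pairs of the same number the treated library was the lower one, although the groups overlapped. The log2 differences of −0.14 ± 0.28, −0.30 ± 0.28 and −0.38 ± 0.28 (SE) did not pass edgeR's test, whose adjusted p with the block was 0.576, 0.0587 and 0.0718. In DESeq2 with the block the adjusted p of Bhlhe22 was 0.0304 for apoE3 and 0.0259 for apoE4.

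Hes1 (chr16:30064384-30067796), the Notch-driven repressor of proneural genes, was at 2.96, 3.30, 3.49 and 3.30 CPM in control replicates 1 to 4. In apoE2 it was at 5.78, 5.54, 3.41 and 4.20 CPM and in apoE3 at 5.94, 3.61, 2.86 and 5.71 CPM, above the control of the same number in 3 of 4 pairs for each. In apoE4 it was at 3.25, 2.62, 3.43 and 4.17 CPM. The control libraries lay close together, while apoE2 and apoE3 spread more widely, with 1 apoE3 library below every control library. The log2 differences were 0.53 ± 0.25, 0.47 ± 0.25 and 0.04 ± 0.25 (SE, edgeR adjusted p = 1, 0.803 and 1), and none reached the criterion.

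Hes5 (chr4:154960923-154962371), the effector most tied to Notch activity in neural stem cells, was at 0.364, 0.443, 0.698 and 0.628 CPM in control replicates 1 to 4. It was at 2.21, 0.533, 0.762 and 1.05 CPM in apoE3, above the control of the same number in 4 of 4 pairs, with replicate 1 well above the rest. In apoE2 it was at 0.282, 0.573, 0.421 and 0.916 CPM and in apoE4 at 0.813, 0.428, 0.443 and 0.763 CPM, both within or around the control range. The 4 libraries of a group held 51, 66, 78 and 50 reads in control, apoE2, apoE3 and apoE4.

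With apoE3 Hes5 was 2.07-fold higher (log2 fold change 1.05 ± 0.46, SE, edgeR adjusted p = 0.767). This call at the study's criterion was lost with the replicate block (0.93) and in the test of the study's methods (1.07). It also ended when replicate 1 (0.89) or 2 (0.97) of the control or replicate 1 (0.53) or 4 (1.07) of apoE3 was left out. The log2 differences for apoE2 and apoE4 were 0.08 ± 0.46 and 0.18 ± 0.47. Gm20421 covers 31.8% of the exon bases of Hes5 on the other strand, and without a stated strand its reads and those of Hes5 cannot be told apart there.

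Hey1 (chr3:8663359-8667256), a HES-related effector found in neural and vascular cells, varied least of the 9 between groups. Its level was 37.1 ± 7.62 CPM in control, 38.7 ± 7.65 in apoE2, 39.0 ± 12.1 in apoE3 and 35.5 ± 6.04 in apoE4 (SD, n = 4). The log2 differences were 0.06, 0.07 and −0.06, each ± 0.22 (SE).

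**Figure D2:**
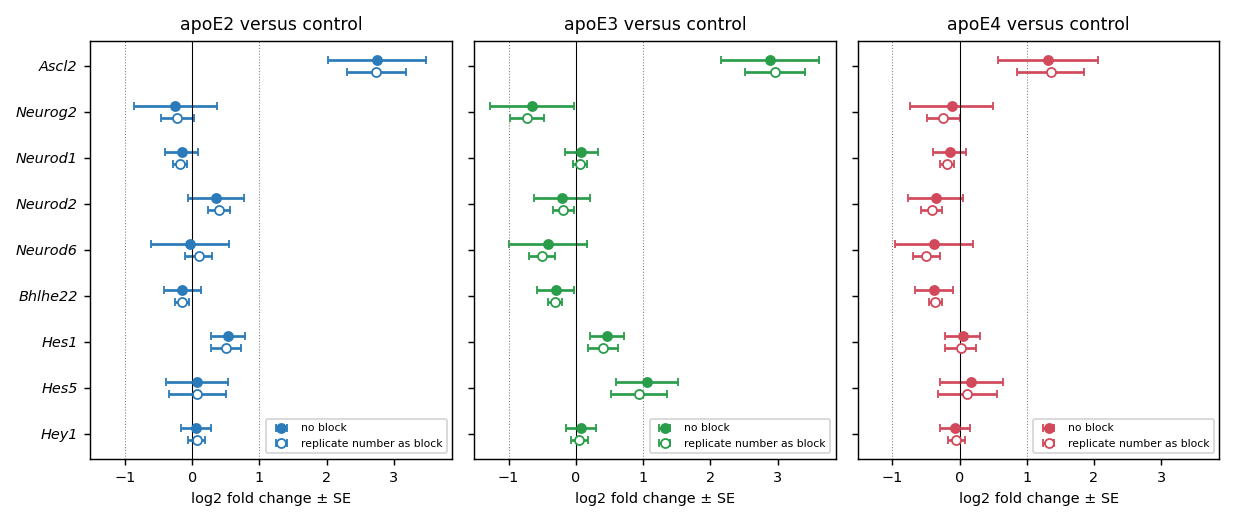
Log2 fold changes of the 9 factors against the control, in 1 panel for each isoform, with bars of 1 SE from edgeR without (filled) and with (open) the replicate number as a block. Dotted lines mark a fold of 2. Ascl2 lies beyond it with every isoform, Hes5 with apoE3 in the fit without the block only, and the bars of the NeuroD factors are shorter with the block.

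Of the 9 factors, Ascl2 had the largest log2 differences between apoE4 and the other isoforms. It was lower with apoE4 than with apoE3 in 4 of 4 pairs (log2 fold change −1.57 ± 0.68, SE, edgeR adjusted p = 1), past the criterion. This call was lost without apoE3 replicate 3 (−1.25), apoE3 replicate 4 (−1.49), apoE4 replicate 2 (−1.28) or apoE4 replicate 3 (−1.32). It was lower with apoE4 than with apoE2 by a similar amount, −1.43 ± 0.67 (edgeR adjusted p = 0.942), also in 4 of 4 pairs. That second difference met the criterion without control replicate 2 (−1.44), control replicate 4 (−1.44), apoE2 replicate 1 (−1.60), apoE2 replicate 2 (−1.67), apoE3 replicate 2 (−1.44) or apoE4 replicate 4 (−1.91). Over all fits with 1 library left out it lay between −1.91 and −0.776. The apoE4 and apoE3 call was also lost in the test of the study's methods (−1.56). With the block the edgeR adjusted p of these Ascl2 differences was 0.0541 and 0.0610, and that of DESeq2 0.0172 and 0.0391. Between apoE3 and apoE2 the difference was 0.14 ± 0.64, with no order of the pairs.

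Of the 9, 1 (Ascl2) met the criterion of the study between apoE4 and apoE3, 0 between apoE4 and apoE2 and 0 between apoE3 and apoE2, beside 1.25%, 1.3% and 0.687% of all genes. At an edgeR adjusted p under 0.05 stood 0 in each, beside 0.147%, 0.252% and 0.0%, and DESeq2 called 0 in each, beside 0.295%, 0.833% and 0.0145%. At an unadjusted p under 0.05 stood 1, 0 and 0, beside 4.7%, 5.34% and 2.28%. With the block 1, 1 and 0 met the criterion, again Ascl2, beside 2.1%, 2.1% and 1.68%. The adjusted p was then under 0.05 for 0, 1 and 0, beside 1.76%, 4.44% and 1.31%. DESeq2 with the block called 1, 3 and 1, beside 4.31%, 7.63% and 4.34%.

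The 1 member called by edgeR with the block was Neurod2, lower with apoE4 than with apoE2 in 4 of 4 pairs. Its log2 difference was −0.71 ± 0.42 (SE, edgeR adjusted p = 1) without the block and −0.81 ± 0.16 (adjusted p = 0.00897) with it. Without apoE4 replicate 2 the fit without the block gave −1.14, past the criterion. Over all such fits with 1 library left out it lay between −1.14 and −0.389. Neurod2 was also lower with apoE3 than with apoE2 in 4 of 4 pairs, at −0.56 ± 0.42 (SE), as was Neurod6 at −0.38 ± 0.58 and Neurog2 at −0.40 ± 0.62, none of which passed edgeR's test. In DESeq2 with the block the adjusted p of Neurod2 was 0.0219 between apoE3 and apoE2, and between apoE4 and apoE2 it was 1.11e-04 for Neurod2 and 0.0474 for Neurod6 (−0.59). Neurod1 went the other way, higher with apoE3 than with apoE2 in 4 of 4 pairs at 0.23 ± 0.24 (SE). Hes5 was 0.97 ± 0.46 higher with apoE3 than with apoE2 and lower with apoE4 than with apoE3 in 4 of 4 pairs (log2 difference −0.88 ± 0.46), with an edgeR adjusted p of 1 for both. Hes5 met the criterion between apoE3 and apoE2 without apoE2 replicate 4 (1.33), apoE3 replicate 2 (1.22) or apoE3 replicate 3 (1.13), and between apoE4 and apoE3 without apoE3 replicate 2 (−1.12). Over all fits with 1 library left out these differences lay between 0.452 and 1.33 and between −1.12 and −0.357.

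Over the 16 libraries, the highest level of a factor was 73.9 times its lowest for Ascl2, 8.70 for Neurog2, 7.84 for Hes5, 7.11 for Neurod6 and 6.11 for Neurod2. It was 2.13 to 2.31 times for Hey1, Bhlhe22, Hes1 and Neurod1. Of the variance of log2 CPM, 80.8% lay between replicate numbers for Neurod6, 77.4% for Neurod1, 77.3% for Neurog2, 77.1% for Bhlhe22, 70.9% for Hey1 and 65.9% for Neurod2, against a median of 56.1% over all tested genes. Ascl2, Hes1 and Hes5 had less of it there, 28.6%, 18.3% and 16.4%. They had more between groups, 61.7%, 35.9% and 32.9%, against a median of 14.4%. The rest, which lay neither between groups nor between numbers, was 9.72% for Ascl2 but 45.8% for Hes1 and 50.8% for Hes5.

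Replicate 2 was the highest library of its group in 4 of 4 groups for Neurod2, Neurod6 and Bhlhe22, and the lowest in 4 of 4 for Neurod1 and Hey1. Replicate 4 was the highest in 3 of 4 for Ascl2 and Hey1 and the lowest in 3 of 4 for Neurod2 and Neurod6. Neurod2 and Neurod6 thus stood opposite to Neurod1 within the same family.

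**Figure D3:**
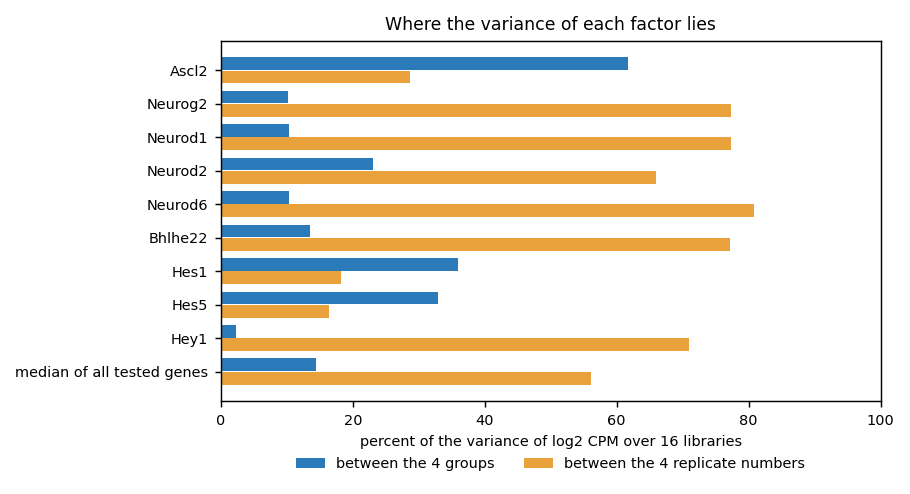
Percent of the variance of log2 CPM over 16 libraries that lies between the 4 groups and between the 4 replicate numbers, for each factor and as the median of all 17038 tested genes. Ascl2 has the longest bar for groups and Neurod6 the longest for replicate numbers.

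The summed astrocyte markers were at 1.20 to 2.08 times the control library of the same number with apoE3 and at 1.11 to 1.70 times with apoE4, higher in 4 of 4 pairs each. With apoE2 they were at 0.930 to 1.48 times, higher in 2 pairs and lower in 2. The paper also counted astrocytes stained for the protein GFAP, on coverslips, at the end of the experiment. It found no significant difference between treatments in their share of all cells. Whether the higher sums come from more astrocytes or from more RNA per astrocyte was not tested. The progenitor sum, most of it Vim and Nes, was higher in 4 of 4 pairs with each isoform. It was at 1.07 to 1.99 times with apoE2, 1.82 to 3.22 times with apoE3 and 1.40 to 2.17 times with apoE4. The astrocyte markers summed to a median of 2335 CPM in control (1430 to 3216), 2991 in apoE2 (1330 to 3208), 3918 in apoE3 (1720 to 6694) and 3605 in apoE4 (1590 to 5450). Of the 10, 9, 9 and 10 were higher than in the control with apoE2, apoE3 and apoE4, none at the study's criterion, and with the block 0, 9 and 4 had an edgeR adjusted p under 0.05, where 1.73%, 11.7% and 3.3% of all genes did. The 8 progenitor markers (Nes, Sox2, Vim, Top2a and others) summed to a median of 628 CPM in control (204 to 1342), 1079.9 in apoE2 (295 to 1433), 1644 in apoE3 (384 to 3714) and 1098 in apoE4 (285 to 2909). Of these 7, 8 and 8 were higher, with 1, 1 and 0 at the criterion (Top2a, beside 0.722%, 1.96% and 1.15% of all genes) and 1, 5 and 2 at an adjusted p under 0.05 with the block, beside the same 1.73%, 11.7% and 3.3%. None of these markers was at 0 in a library. Vim had means of 541, 737, 1490 and 1093 CPM in control, apoE2, apoE3 and apoE4, and Nes 117, 178, 266 and 187 CPM. Mki67, Top2a, Cdk1 and Ccnb1 had control means of only 5.24, 4.16, 0.745 and 0.545 CPM.

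The neuron markers summed to medians of 5794, 5620, 5354 and 5835 CPM in control, apoE2, apoE3 and apoE4, with none of the 10 at the criterion, and with the block 1 rose and 2 fell with apoE3, beside 11.7% of all genes called. Oligodendrocyte lineage markers (8) had medians of 224, 225, 444 and 294 CPM, and with the block 0, 3 and 1 of them rose with apoE2, apoE3 and apoE4, beside 1.73%, 11.7% and 3.3% of all genes. Microglial markers had medians of 14.7, 18.1, 14.5 and 15.5 CPM and vascular and fibroblast markers 58.5, 66.7, 93.6 and 105 CPM, of which Cldn5 and Cdh5 had too few reads to be tested. The part of these cells in the levels of the 9 factors was not tested.

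Across the 16 libraries the neuronal factors and the astrocyte sum ran in opposite directions. The correlation of log2 levels was −0.853 for Neurod2, −0.818 for Neurod6, −0.781 for Bhlhe22 and −0.68 for Neurog2. With replicate number means removed it was −0.555, −0.815, −0.847 and −0.706. Hey1 (0.817), Neurod1 (0.635), Ascl2 (0.596), Hes5 (0.523) and Hes1 (0.359) ran with the astrocyte sum, and with number means removed these were 0.341, 0.0974, 0.314, 0.455 and 0.4. The same 5 ran with the progenitor sum, most of which was Vim and Nes. The correlations were 0.808 for Hey1, 0.685 for Ascl2, 0.553 for Neurod1, 0.543 for Hes5 and 0.464 for Hes1. With number means removed they were 0.313, 0.572, 0.0875, 0.505 and 0.548. Neurod6 (0.948), Neurog2 (0.912), Neurod2 (0.615) and Bhlhe22 (0.173) ran with the neuron sum, and with number means removed at 0.828, 0.699, 0.538 and 0.676. The other 5 ran against it at −0.301 to −0.607, and with number means removed at −0.12 (Ascl2) to −0.516 (Hes1). These 16 points share 4 groups and 4 numbers and are given as a description.

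**Figure D4:**
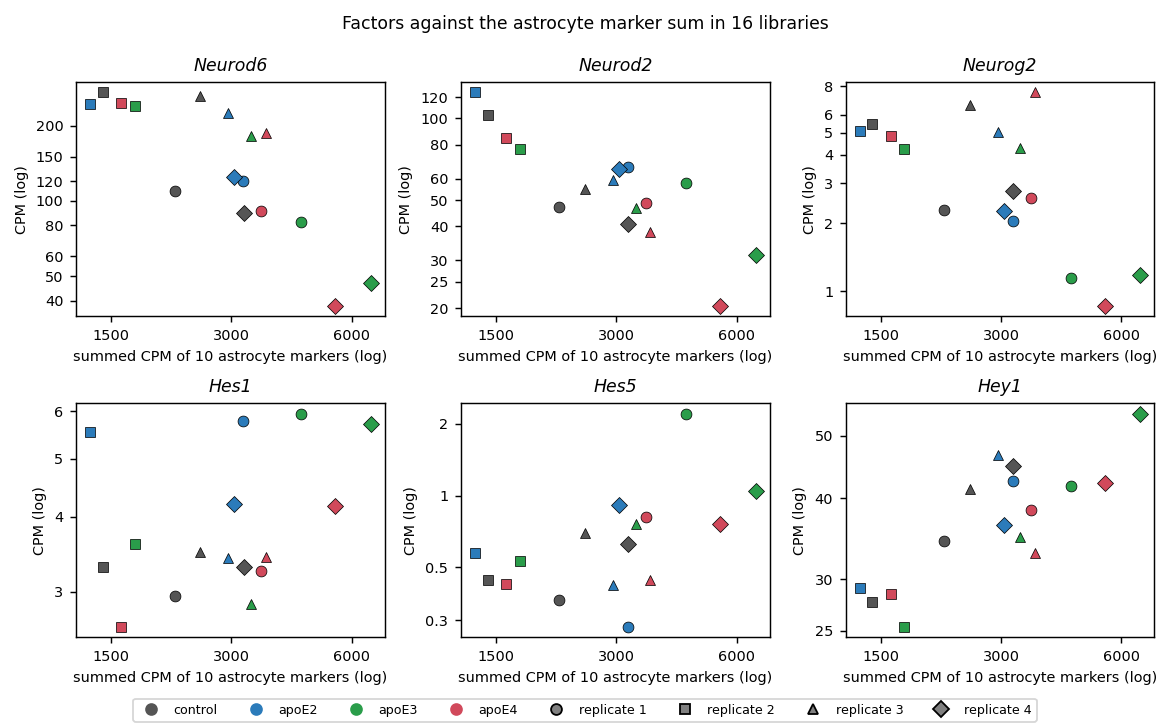
Level of 6 factors in CPM against the summed CPM of 10 astrocyte markers, both on log axes, with 1 point for each of 16 libraries, coloured by group and shaped by replicate number. Neurod6, Neurod2 and Neurog2 fall from the libraries with the lowest astrocyte sum to those with the highest, Hey1 rises, and Hes1 and Hes5 scatter more widely.

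Among the factors themselves, Neurog2 and Neurod6 ran most closely together, with a correlation of log2 CPM of 0.922 over 16 libraries and 0.754 with number means removed. Neurod2 and Neurod6 followed at 0.776 and 0.824. Neurod1 ran against Neurod2 at −0.702, which was −0.244 once number means were removed, and Hey1 against Bhlhe22 at −0.697 and −0.431. Hes1 and Hes5 were only loosely tied, at 0.405 and 0.327. Among the genes most like each factor over the 16 libraries were Fmnl2 (0.923), Ell2 and Fhod3 for Ascl2, Tmem198 (0.964), Bves and Unc13a for Neurog2, and Gm10311 (0.858), Retsat and Amd2 for Neurod1. They were Brinp2 (0.963), Ptchd2 and Syt13 for Neurod2, Pde1a (0.989), Arel1 and Snap91 for Neurod6, and Zfp13 (0.951), Fcho1 and Ssbp2 for Bhlhe22. For the Notch effectors they were Pid1 (0.884), Aldh1a1 and Rfk for Hes1, Prr13 (0.788), R3hcc1l and Fzd8 for Hes5, and Enpp1 (0.905) and Col16a1 for Hey1. The same shared groups and numbers stand behind these values.

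The pathway around the 9 factors was read from 7 lists of 100 genes, of which 80 were tested. At the study's criterion 0 genes changed with apoE2, 2 rose with apoE3 (Id1 and Id3) and 1 rose with apoE4 (Id3), and none fell, beside 0.722%, 1.96% and 1.15% of all tested genes called in either direction. For 80 genes these shares are near the background. No list gene had an edgeR adjusted p under 0.05 against the control without the block. With it 2 rose and 2 fell with apoE2, 16 rose and 4 fell with apoE3, and 4 rose and 1 fell with apoE4, read beside the background shares of 1.73%, 11.7% and 3.3% of all genes given above.

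Id proteins lack a DNA-binding region and hold E proteins away from proneural factors. Id3 was at 2.77 ± 1.66 CPM in control, 5.49 ± 3.31 in apoE2, 17.6 ± 13.9 in apoE3 and 13.6 ± 8.50 in apoE4 (SD, n = 4). Its log2 fold change was 2.67 with apoE3 (edgeR adjusted p = 0.569) and 2.29 with apoE4 (adjusted p = 0.822). Both calls held with any 1 library left out, at 2.28 to 3.15 and 1.92 to 2.78, but in the per-gene test that the study's methods name the apoE3 call of Id3 was lost (2.65). Id1 was at 1.83 ± 1.51, 3.25 ± 2.43, 9.37 ± 8.74 and 5.82 ± 4.50 CPM, and its log2 fold change with apoE3 was 2.36 (edgeR adjusted p = 0.767). Leaving out 1 library ended that Id1 call when it was replicate 1 (2.31), 2 (2.05) or 3 (2.18) of the control or replicate 1 (2.08) or 4 (1.74) of apoE3, and moved it to 3.07 when it was control replicate 4. It was lost as well in the test of the study's methods (2.34) and without the 4 libraries numbered 4 (2.43). With the block Id3 and Id1 had adjusted p of 0.00175 and 0.00344 with apoE3 and of 0.00483 and 0.0366 with apoE4. Id1, Id3 and Notch3 also stand in the study's own tables from these libraries.

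Id2 differed from Id1 and Id3. It was at 37.0 ± 4.75 CPM in control, 25.9 ± 3.44 in apoE2, 51.1 ± 5.47 in apoE3 and 42.7 ± 13.3 in apoE4 (SD, n = 4). All apoE3 libraries were above every control and every apoE2 library. The log2 difference of Id2 between apoE3 and apoE2 was 0.98 (edgeR adjusted p = 0.930), and with the block the adjusted p was 0.00176. It passed a fold of 2 without apoE2 replicate 3 (1.08), apoE3 replicate 1 (1.02) or apoE3 replicate 2 (1.01). With the block Id2 fell with apoE2 (−0.52, adjusted p = 0.0469) and rose with apoE3 (0.47, adjusted p = 0.0212).

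Of 11 tested Notch receptors and ligands, 7 were higher with each isoform, beside 52.3%, 52.4% and 50.4% of all genes, and none met the criterion. With the block Notch1 (log2 fold change 1.02), Notch3 (1.25) and the ligand Jag1 (1.07) rose and Dlk2 (−0.59) fell with apoE3, and Notch3 (1.11) rose with apoE4. Without the block Notch3 met the criterion with apoE3 when control replicate 1 (1.68), apoE3 replicate 2 (1.68), apoE3 replicate 3 (1.60) or apoE4 replicate 2 (1.36) was left out, and with apoE4 without apoE4 replicate 2 (1.50). Of 27 tested genes of Notch processing and nuclear function, the coactivator Maml2 (0.72) and Dtx4 (0.36) rose and the ligase Mib2 (−0.21) fell with apoE3, and Maml2 (0.61) rose with apoE4, again with the block. For 27 genes this is near the 11.7% and 3.3% of all genes called there. Hes6, Hey2, Bhlhe40 and Bhlhe41 were the 4 tested genes listed beside the HES and HEY factors. Of these Hes6 (0.54), Bhlhe40 (0.64) and Bhlhe41 (0.79) rose with apoE3 with the block, where 11.7% of all genes were called. Without the block Bhlhe41 met the criterion when apoE3 replicate 2 was left out (1.18). Of the 17 other proneural genes only 6 could be tested, and Olig1 (0.63) and Olig2 (0.70), factors of the oligodendrocyte lineage, rose with apoE3 with the block, where Atoh8 (1.05) met the criterion. With apoE3 in that fit 11.7% of all genes had an adjusted p under 0.05 and 4.77% met the criterion. Atoh8 did not meet it in DESeq2 with the block (0.98), and in edgeR without the block its log2 fold change was 1.29 and, without apoE3 replicate 4, 0.59. None of 6 tested Groucho corepressors was called in any comparison.

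Of 19 tested genes of the excitatory lineage, none met the criterion against the control. With the block Lhx2 (0.34) and Insm1 (0.88) rose and Sox11 (−0.71) fell with apoE2, beside 1.73% of all genes called. Emx2 (0.50), Sox4 (0.72) and Slc17a6 (0.71), which encodes a vesicular glutamate transporter, rose with apoE3, the second past the criterion in the fit without the block when control replicate 4 was left out (1.05), while Mef2c (−0.38) and Calb1 (−0.64), which encodes the calcium buffer calbindin of granule and pyramidal neurons, fell. Calb1 fell by 0.82 with apoE4 in that fit. Between isoforms Calb1 was lower with apoE4 than with apoE2 (−1.26, edgeR adjusted p = 0.186) and with apoE3 than with apoE2 (−1.03, adjusted p = 1), with no overlap between the groups. The latter call was lost without apoE2 replicate 3 (−0.98), apoE3 replicate 2 (−0.92) or apoE3 replicate 4 (−0.79), and without the 4 libraries numbered 4 (−0.81).

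Id3 was the other list gene at the criterion between isoforms, higher with apoE3 than with apoE2 (1.69, edgeR adjusted p = 1). At the criterion stood 0.687% of all genes between apoE3 and apoE2 and 1.3% between apoE4 and apoE2. That Id3 call was lost without apoE2 replicate 2 (1.39), replicate 3 (1.62) or replicate 4 (1.68) and without apoE3 replicate 1 (1.32) or replicate 4 (1.31). It was lost too in the test of the study's methods (1.67), with only the 2 groups compared (1.68) and without the 4 libraries numbered 4 (1.31). With the block, Sox11 (0.56) was higher and Jag1 (−0.76), Dtx4 (−0.33), Olig2 (−0.61) and Hes6 (−0.64) were lower with apoE4 than with apoE3. Id2 (0.70) and Sox11 (0.85) were higher and Hes6 (−0.63), Lhx2 (−0.42) and Calb1 (−1.34) lower with apoE4 than with apoE2 in that fit. Of the 80 tested list genes, 1 rose and 4 fell between apoE4 and apoE3, beside 1.76% of all genes called. Between apoE4 and apoE2, 2 rose and 3 fell, beside 4.44%. Atoh8 (1.23) and Id1 (1.22) between apoE3 and apoE2 and Id3 (1.25) between apoE4 and apoE2 met the criterion with the block and not in the fit of all 16 libraries without it. With the block 1.68% of all genes met the criterion between apoE3 and apoE2 and 2.1% between apoE4 and apoE2. Without the block and without apoE3 replicate 4 the difference between apoE3 and apoE2 was 0.62 for Atoh8 (from 1.30) and 0.92 for Id1 (from 1.53). In the fit without the block the difference between apoE4 and apoE2 met the criterion for Id3 without apoE4 replicate 2 (1.66) and for Sox11 without apoE2 replicate 4 (1.03).

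**Figure D5:**
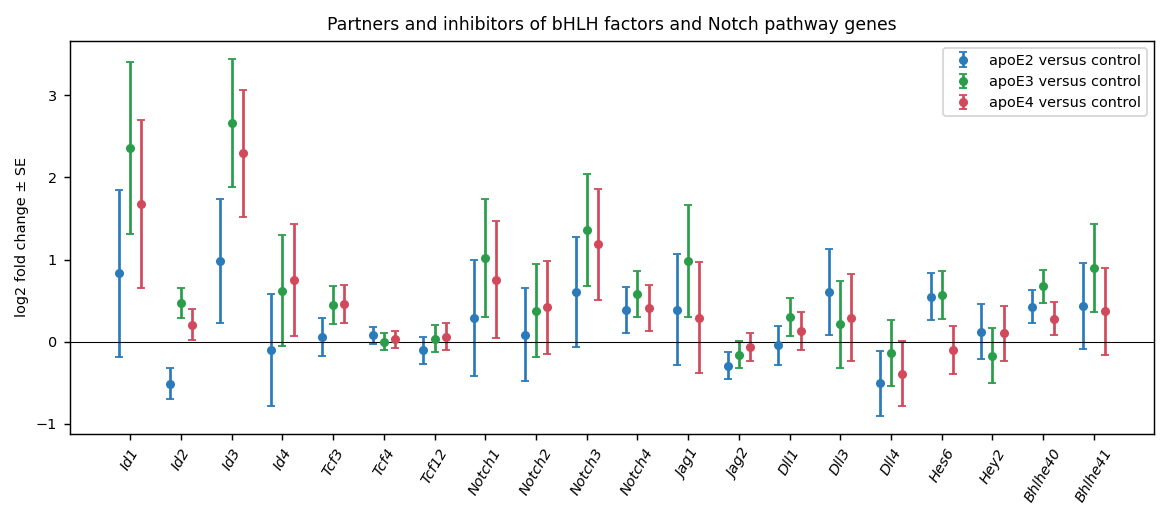
Log2 fold changes against the control with bars of 1 SE, in edgeR without the block, for Id proteins, E proteins, Notch receptors and ligands and Hes6, Hey2, Bhlhe40 and Bhlhe41, coloured by isoform. Id1 and Id3 lie highest with apoE3 and apoE4, and Id2 lies below 0 with apoE2 and above it with apoE3 and apoE4.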

How the data were processed

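RNA of 16 libraries, 4 per group, was compared between 4 groups. STAR alignments to mm10 were tallied by the authors with HTSeq, and the deposited values are raw counts per gene symbol, not normalized. The annotation release and the strand setting are not given in the sources used here. Rows of unassigned reads entered neither library sizes nor tests. Groups and replicate numbers came from the labels. The study's methods describe 4 separate cultures per group.

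Counts were fitted in R 4.3.3 with edgeR 4.0.16 after TMM scaling and filterByExpr (minimum count 10, total 15, proportion 0.7), 1 coefficient per group over 16 libraries and the quasi-likelihood test, and p-values were adjusted by Benjamini-Hochberg over 17038 genes within each of 6 comparisons. SE are from that fit, and correlations between genes or libraries and shares of variance were taken from log2 CPM (prior count 2). Correlations with marker sums were taken from log2 CPM without a prior count. Total counts of at least 14087723 set the counting precision, and fold changes of Ascl2, Hes5 and Atoh8 rest on few reads. Exon lengths, positions and overlaps come from GENCODE M21 on mm10, promoters from RefSeq. The scripts were tested on simulated data.

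All same-number pairs of libraries deviated together (24 pairs, correlation of at least 0.362, against −0.736 to 0.569 over 72 pairs of different numbers), so the number was also fitted as a block. The 6 pairs of number 1, at 0.362 to 0.552, did not exceed the highest pair of different numbers. The pairing comes from the data, not the labels. The study names no block, and the reported fit has none.

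The 9 factors and all lists were chosen with earlier results of these data known. The text was to name the 9, each list gene called with or without the block, the 3 genes most correlated with each factor and marker sums. For Hey1, 1 of these is not reported here. Alternatives were DESeq2 size factors, no low-count filter, 1 CPM in 8 libraries, DESeq2 1.42.0, the per-gene equal-variance test of the study's methods on counts divided by size factors, only the 2 groups compared, the block, DESeq2 with the block, and each library left out. Leaving out the 4 libraries numbered 4 together, and all alternatives for list genes, were added after values had been seen.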

Additional observations from a re-analysis of the deposited data

Results flagged for a closer look

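In 2 of 36 groups of 4 libraries, 9 factors in 4 groups each, 1 library stood apart from the other 3 by more than Dixon's critical value at 95%, and chance alone gives such a library in about 5% of groups. Neurod2 in apoE2 replicate 2 was at 125 CPM against 59.4 to 66.0 in the other apoE2 libraries, a gap of 0.900 of the whole range. Bhlhe22 in apoE3 replicate 2 was at 249 CPM against 123 to 135 in the others, a gap of 0.899. Replicate 2 was the highest library for both genes in all 4 groups.

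Some differences between isoforms were called in some fits and not in others, among them those of Ascl2 and Neurod2. Ascl2 was lower with apoE4 than with apoE3 (log2 fold change −1.57, past the study's criterion, edgeR adjusted p = 1, and 0.0541 with the replicate block). Neurod2 was lower with apoE4 than with apoE2, at −0.71 (edgeR adjusted p = 1) without the replicate block and −0.81 with it (adjusted p = 0.00897).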

How the results depend on the processing

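The calls on these factors rest on 4 libraries a group and, for Ascl2 and Hes5, on few reads, and depth limits both. Leaving 1 library out kept the count of members at the study's criterion at 1 with apoE2, at 1 to 2 with apoE3, 0 to 1 with apoE4, 0 to 2 between apoE4 and apoE3, 0 to 1 between apoE4 and apoE2 and 0 to 1 between apoE3 and apoE2, and 0 members at an adjusted p under 0.05 throughout. A filter of 1 CPM in 8 libraries leaves Ascl2 and Hes5 untested, so the count fell to 0 with apoE2 (from 1), with apoE3 (from 2) and between apoE4 and apoE3 (from 1). The methods' test gave 0, 1 and 0 in these, and Ascl2 with apoE2 at 2.71 was then not called. With apoE3 the count was 1 with only the 2 groups compared, and 1 without the 4 libraries numbered 4, which gave 1 between apoE3 and apoE2. Between apoE4 and apoE2 the count rose from 0 to 1 (Ascl2) with DESeq2 size factors, no low-count filter and DESeq2. DESeq2 called 1 member with apoE3 at an adjusted p under 0.05. The cause was not tested where none is named.

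With the replicate block the criterion was met by 1 member with apoE3 (from 2), 1 with apoE4 (from 0) and 1 between apoE4 and apoE2 (from 0), in edgeR and in DESeq2. At an adjusted p under 0.05 the blocked edgeR fit called 1 with apoE2, 1 with apoE3 and 1 between apoE4 and apoE2 (each from 0). Blocked DESeq2, which called 4.31 to 15.3% of the genes with an adjusted p, called 1 with apoE2 (Ascl2), 3 with apoE3 (Ascl2, Neurog2 and Bhlhe22), 1 with apoE4 (Bhlhe22), 1 between apoE4 and apoE3 (Ascl2), 3 between apoE4 and apoE2 (Ascl2, Neurod2 and Neurod6) and 1 between apoE3 and apoE2 (Neurod2). The block changed no other call on a member.

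Signs turned only for log2 differences that passed no test. With the block Neurod6 with apoE2 was at 0.095 (DESeq2 0.085), Neurog2 between apoE4 and apoE2 at −0.015 (−0.023), Hey1 between apoE3 and apoE2 at −0.019 (−0.021) and Neurod1 between apoE4 and apoE2 at −0.00020 in edgeR. Without a low-count filter Neurod1 (apoE4 and apoE2) was at −0.0017 and Hey1 (apoE3 and apoE2) at −0.0083. Without the libraries numbered 4, Hes5 with apoE2 was at −0.22, Hey1 with apoE3 at −0.035, Neurog2 with apoE4 at 0.045, Hes1 with apoE4 at −0.087, Neurod1 (apoE4 and apoE2) at −0.11 and Hey1 (apoE3 and apoE2) at −0.22. Leaving out 1 library gave ranges across 0 as follows. With apoE2 they were −0.26 to 0.21 for Neurod6, −0.47 to 0.039 for Neurog2, −0.29 to 0.27 for Hes5, −0.056 to 0.17 for Hey1 and −0.38 to 0.036 for Bhlhe22. With apoE3 they were −0.080 to 0.20 for Neurod1, −0.44 to 0.16 for Neurod2 and −0.12 to 0.23 for Hey1. With apoE4 they were −0.33 to 0.0063 for Neurod1, −0.79 to 0.013 for Neurod2, −0.62 to 0.21 for Neurog2, −0.079 to 0.15 for Hes1 and −0.18 to 0.044 for Hey1. Between apoE4 and apoE3 they were −0.58 to 0.11 for Neurod2, −0.38 to 0.44 for Neurod6, −0.29 to 0.056 for Hey1 and −0.23 to 0.22 for Bhlhe22. Between apoE4 and apoE2 they were −0.17 to 0.17 for Neurod1, −0.37 to 0.47 for Neurog2 and −0.087 to 0.45 for Hes5, and between apoE3 and apoE2 −0.18 to 0.80 for Ascl2, −0.22 to 0.10 for Hes1, −0.18 to 0.17 for Hey1 and −0.46 to 0.080 for Bhlhe22.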
